A study of Mus musculus with 8 samples.

Results

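The genes described here are 9 genes of the colony-stimulating factor axis and of myeloid transcription: the ligands Csf1 and Il34, the receptor genes Csf1r, Csf2ra, Csf2rb and Csf3r, and the transcription factor genes Spi1, Irf8 and Runx1. They were taken by name from a table of 17644 genes. A row with the member's own symbol was found for 8 of them, and Spi1 was found under its older symbol Sfpi1, a RefSeq synonym. Expression was measured by CAGE, a method that sequences the capped 5' end of each RNA as a tag. The animals were C57BL/6NCrSlc mice, male and aged 11 weeks, in which a small cavity was aspirated from the motor cortex, and the tissue is the rim of 1.0 mm around it. It was collected at once in the no-delay group (4 libraries) and 1 week later in the 1-week group (4 libraries). Every animal carried the lesion, so there was no unlesioned tissue, and the cavity tissue is a mixture of all cell types of the cortex. Values are CPM, a gene's tags scaled to a common library total. With 1 tag per RNA 5' end, a gene's CPM does not grow with its length.

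Colony-stimulating factor 1 (Csf1) and interleukin 34 (Il34) are unrelated in sequence but bind the same receptor tyrosine kinase, Csf1r, which microglia and macrophages need to survive and divide. Csf2ra and Csf2rb encode both chains of the receptor for granulocyte-macrophage colony-stimulating factor, and Csf3r the receptor for granulocyte colony-stimulating factor, best known from neutrophils. Spi1 (PU.1), Irf8 and Runx1 are transcription factors of the myeloid lineage. PU.1 and IRF8 can bind DNA together, and both are needed for normal microglia.

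At 1 week the receptor and transcription factor genes and the ligand Csf1 were higher, whereas the ligand Il34 was not called. Csf1r went from 73.6 CPM ± 3.57 (SD, n = 4) to 294 CPM ± 33.4 (SD, n = 4), and Irf8 from 7.74 CPM ± 0.485 to 57.7 CPM ± 9.19 (SD, n = 4 each). Of the 7 members with 1 CPM or more in all no-delay libraries, 6 were called higher and 0 lower (limma on log2(CPM + 1), Benjamini-Hochberg adjusted p under 0.05). Of the 14718 genes tested, 23.4% were called higher and 13.4% lower. The other 2 members, Csf2ra and Csf2rb, passed the expression filter only through their 1-week values, so their direction was favoured by the filter and they are counted apart. Of the 7, the 1-week libraries were all above the no-delay libraries in 6, against 22.7% of the genes tested. The median log2 fold change was 2.10 over the 7 and 0.06 over all genes tested. Leaving out the 651 genes that passed only through the 1-week group, 2952 of 14067 genes were called higher and 1971 lower. In a bulk sample, more cells of a type and more RNA per cell cannot be told apart.

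The 4 libraries of a group are called A to D here, in the alphabetical order of the 6-base tag in each column name; the same 4 tags occur in both groups. Their depth was 8278855 to 13998942 tags assigned to genes, so 3 tags correspond to 0.214 to 0.362 CPM. A second tag of 3 bases is the same in all libraries of a group and differs between the groups. What it marks is not given in the sources used here, and it cannot be told apart from the time after the lesion. Neuronal markers were abundant in both groups, and their sum was lower at 1 week: the summed CPM of 8 such genes was 9602 to 10470 without delay and 8504 to 9366 at 1 week, with no overlap. Of the 8, Rbfox3 (325 to 262 CPM) and Syt1 (1518 to 1316 CPM) were called lower and 0 higher, where 13.4% of all genes tested were called lower. The other 6 were not called, among them the most abundant, Camk2a (3507 and 3179 CPM), and Tubb3, whose mean was slightly higher at 1 week (149.6 and 157.2 CPM). The labels list separate samples without naming an animal for each, so the p-values rest on the spread between samples, which may be technical. Among the 1-week libraries, B had the highest value of all 9 members, and it was also highest in the mean log2(CPM + 1) of 10 microglia markers (6.35, against 5.95 to 6.16 in the other 1-week libraries). Without it Csf2rb fell below the filter and the other 7 called members were still called higher, with log2 fold changes from 1.91 (Csf1r) to 2.64 (Irf8).

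**Figure D1:**
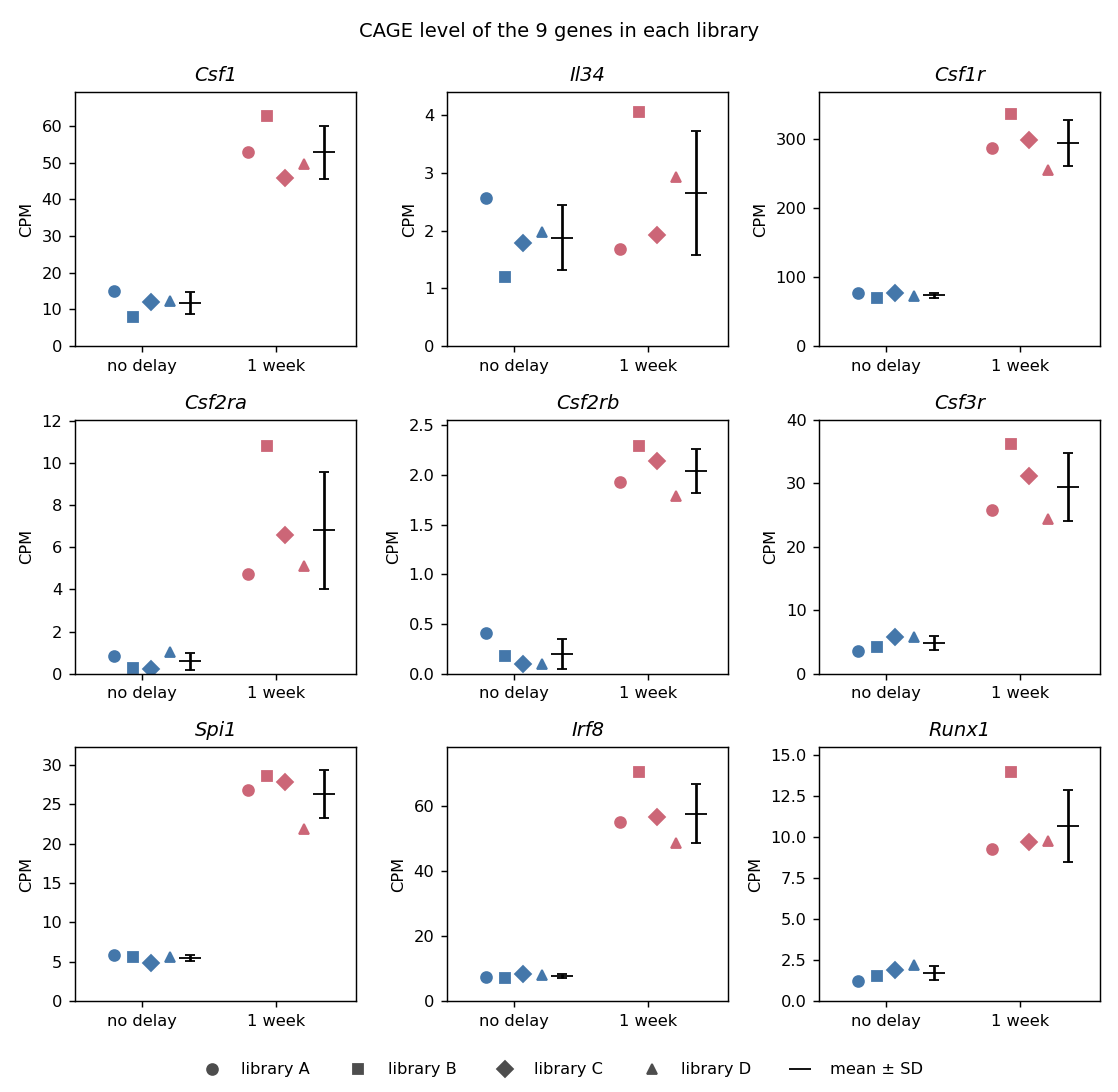
CPM (vertical axis, from 0, with its own scale in each panel) of each of the 9 genes in the 4 no-delay and the 4 1-week libraries; each symbol is 1 library, A to D, and the black bar is the mean ± SD. In all panels but that of Il34 the 1-week libraries lie above all no-delay libraries, and the 1-week library B is the highest 1-week point in each panel.

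The ligands of the Csf1 receptor differed from each other. Csf1 stood at 15.1, 7.96, 11.9 and 12.2 CPM in the no-delay libraries A to D and at 53.0, 62.7, 45.9 and 49.7 CPM in the 1-week libraries A to D. The groups did not overlap, and the lowest 1-week value was about 3 times the highest no-delay value. The log2 fold change was 2.10 (SE 0.16, 95% interval 1.76 to 2.44, limma adjusted p = 8.7e-07). Il34, which neurons are known to make in the adult brain, stood at 2.56, 1.19, 1.78 and 1.98 CPM without delay and at 1.69, 4.06, 1.93 and 2.93 CPM at 1 week. Its groups overlapped: the 1-week libraries A and C lay within the no-delay range, and B and D above it. Its log2 fold change of 0.32 was not called (SE 0.22, 95% interval -0.15 to 0.79; limma, adjusted p = 0.273), and the interval runs from a small fall to a rise. Without the 1-week library B the log2 fold change of Il34 was 0.15, and with quantile normalization it was -0.07. The 75 no-delay and 132 1-week tags give a pooled ratio of 1.48 with an exact 95% counting interval of 1.11 to 1.99, which leaves out the spread between libraries.

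The balance of the ligands was compared within each library, where library scaling plays little part. The no-delay libraries held 5.88 to 6.69 Csf1 tags per Il34 tag, and the 1-week libraries held 31.4, 15.5, 23.8 and 17.0 in the order A to D. The no-delay ratios lay close together, and the 1-week ratios were all higher and spread more widely. They rest on few Il34 tags: 25, 13, 18 and 19 without delay and 14, 55, 27 and 36 at 1 week, in the order A to D. Part of the spread between libraries can therefore be counting error. The mean log2 ratio of CPM + 1 rose from 2.14 ± 0.08 to 3.92 ± 0.31 (SD, n = 4 each; exact 2-sided permutation p = 0.0286, the smallest that 4 against 4 libraries allow; adjusted p = 0.0408 over the 10 ratios tested). The sum of both ligands per Csf1r tag, in contrast, was 0.229, 0.132, 0.179 and 0.197 without delay and 0.191, 0.199, 0.161 and 0.206 at 1 week. These groups overlapped throughout, and the difference of the mean log2 ratios was -0.01 (SE 0.17, n = 4 each, exact permutation p = 0.971). A shift of this ratio was not detected, at a precision set by that SE.

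**Figure D2:**
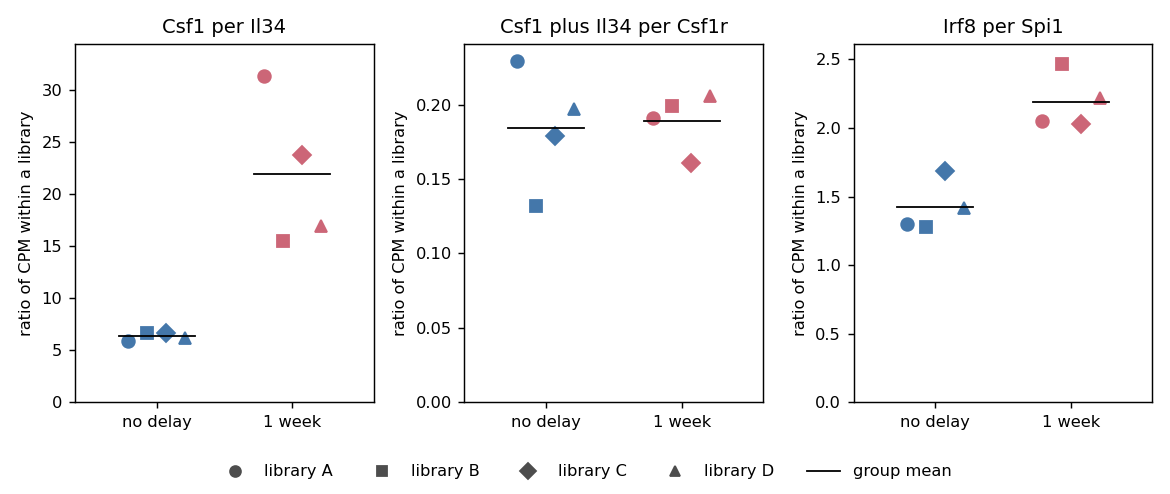
Ratios of CPM within each library (vertical axes, from 0, no unit) for Csf1 per Il34, Csf1 plus Il34 per Csf1r, and Irf8 per Spi1; each symbol is 1 library, A to D, and the line is the group mean. The 1-week libraries lie above all no-delay libraries in the first panel (15.5 to 31.4 against 5.88 to 6.69) and in the third, and the groups overlap in the second.

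Among the receptors, Csf1r was by far the most abundant. It stood at 76.9, 69.4, 76.2 and 72.0 CPM in the no-delay libraries and at 287, 336, 298 and 255 CPM at 1 week, in the order A to D. Within each group the libraries lay close together, and the groups were far apart. This came to 1.98 on the log2 scale (SE 0.08, 95% interval 1.80 to 2.15; limma, adjusted p = 2.2e-08), rank 6 by p among all genes tested. Hmgxb3, a gene on the opposite strand that overlaps Csf1r in the GENCODE annotation, stood at 39.8 and 35.9 CPM in the 2 groups and was not called, although strand use in the counting is not stated.

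Csf3r rose more than Csf1r in the ratio of mean CPM, 6.09 against 3.99, a difference that was not tested. Its values were 3.59, 4.21, 5.74 and 5.73 CPM without delay and 25.7, 36.1, 31.1 and 24.4 CPM at 1 week, with no overlap between the groups. The log2 fold change came to 2.39 (SE 0.16, 95% interval 2.04 to 2.73; limma, adjusted p = 3.6e-07). Neutrophils are the best known source of Csf3r transcripts. Of 12 neutrophil markers 6 had a row in the table, and their summed level was 0.710 to 13.4 CPM without delay and 1.35 to 5.19 CPM at 1 week. S100a8, the most abundant of them, averaged 4.77 ± 4.63 CPM without delay and 1.97 ± 1.26 CPM at 1 week (SD of 4 libraries), was not called (adjusted p = 0.369, limma) and varied widely within each group. The other 5 were too low to be tested, and the part of neutrophils in the values of Csf3r was not tested further.

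The genes for the granulocyte-macrophage receptor were near the detection limit without delay. Csf2ra, the ligand-specific chain, stood at 0.820, 0.270, 0.200 and 1.04 CPM without delay and at 4.71, 10.8, 6.57 and 5.13 CPM at 1 week. These are 23 tags in the no-delay and 340 in the 1-week libraries, a pooled ratio of 12.4 with an exact 95% counting interval of 8.14 to 19.9. On the log2 scale limma gave 2.28 (SE 0.24, adjusted p = 1.7e-05), which understates this ratio, because 1 CPM was added before the logarithm. Csf2rb, the signalling chain, had 4, 2, 1 and 1 tags in the no-delay libraries and 16, 31, 30 and 22 at 1 week, a pooled ratio of 10.4 (exact 95% counting interval 5.08 to 24.7). Its log2 fold change was 1.35 (SE 0.16, limma adjusted p = 3.2e-05). Mice carry a close copy of this gene, Csf2rb2, which encodes another beta chain. It averaged 0.865 ± 0.203 CPM without delay and 8.56 ± 0.30 CPM at 1 week (SD of 4 libraries), or 2.36 as log2 fold change (adjusted p = 8.7e-08, limma). Csf2ra, Csf2rb and Csf2rb2 all passed the expression filter only through their 1-week values, so their direction was favoured by the filter. The counting intervals given for Csf2ra and Csf2rb leave out the spread between libraries. Of 32 pairs of annotated transcripts of Csf2rb and Csf2rb2, 2 share their first 75 bases, the length of a read here. How such tags were assigned is not stated, so the split of tags between these genes is uncertain.

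The transcription factor genes rose as well, Irf8 by the highest factor. Irf8 stood at 7.58, 7.13, 8.22 and 8.02 CPM without delay and at 55.1, 70.5, 56.5 and 48.7 CPM at 1 week. The no-delay libraries were tight, and each 1-week library was far above them. The log2 fold change was 2.74 (SE 0.11, 95% interval 2.50 to 2.98, limma adjusted p = 2.2e-08), rank 54 of all genes tested by log2 fold change and rank 4 by p. Gm20388, a gene model that overlaps Irf8 on the same strand, stood at 46.2 CPM and 46.5 CPM in the 2 groups and was not called.

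Spi1 stood at 5.84, 5.58, 4.85 and 5.63 CPM without delay and at 26.8, 28.6, 27.9 and 21.9 CPM at 1 week, with no overlap. This is 2.07 on the log2 scale (SE 0.11, 95% interval 1.83 to 2.31; limma, adjusted p = 7.2e-08). Runx1, a regulator of blood cell formation that is also known from activated microglia, stood at 1.23, 1.55, 1.88 and 2.19 CPM and at 9.30, 14.0, 9.72 and 9.77 CPM. The 1-week library B stood apart from the other 1-week libraries, which lay close together, but all were above the no-delay libraries. The log2 fold change of Runx1 was 2.10 (SE 0.16, 95% interval 1.75 to 2.45, limma adjusted p = 1.1e-06), and it was 1.98 without the 1-week library B (limma adjusted p = 4.0e-06).

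Irf8 rose by more than Spi1. The libraries held 1.30, 1.28, 1.69 and 1.42 Irf8 tags per Spi1 tag without delay and 2.05, 2.47, 2.03 and 2.22 at 1 week. The groups did not overlap, and the difference of the mean log2 ratios was 0.67 (SE 0.10, n = 4 each, exact permutation p = 0.0286, adjusted p = 0.0408 over 10 ratios), which is 1.59-fold.

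**Figure D3:**
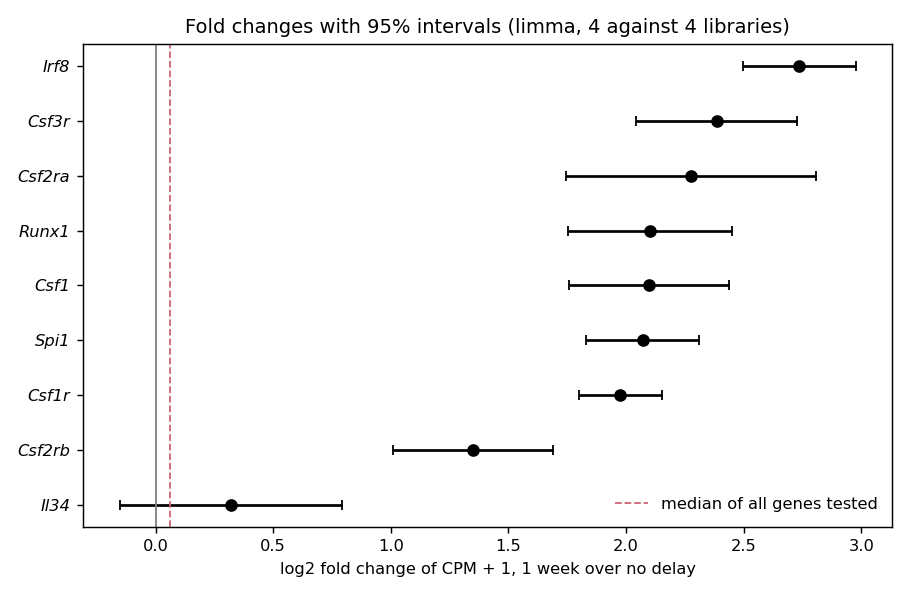
Log2 fold change of CPM + 1 at 1 week over no delay (horizontal axis) for each of the 9 genes, with 95% intervals from limma (n = 4 libraries a group); the grey line is 0 and the dashed line the median of all genes tested (0.06). Irf8 is highest at 2.74, Il34 lowest at 0.32 with an interval that spans 0, and the interval of Csf2rb lies between 1.01 and 1.69.

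The order of the members by level was nearly the same at both times. Csf1r was the most abundant in each group, with every library above every value of the next gene. Without delay Csf1 came next and then Irf8, whose ranges overlapped, and at 1 week Irf8 (57.7 CPM) and Csf1 (52.8 CPM) had changed places, again with overlapping ranges. Spi1 and Csf3r were neighbours in both groups and overlapped in both. Il34 and Runx1 overlapped without delay (1.88 and 1.71 CPM), but at 1 week Runx1 (10.7 CPM) lay above Il34 (2.65 CPM) in all libraries, and Il34 now overlapped with Csf2rb (2.04 CPM), the lowest member at both times.

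Since CAGE tags mark transcript starts, the bases before the annotated starts are given for 3 members that rose, as the places where such starts lie and as examples of how differently they are built. They come from RefSeq promoter windows on GRCm38.p6 (the tags were mapped to mm9, so no tag position is implied), which were used for 5 of the 9 members, in 7 windows. Csf1r was left out of the search, and no window was at hand for Il34, Spi1 and Csf2rb. The motif counts below therefore say nothing about these members. Capitals mark matches to a searched motif, on either strand. The 250 bases before an Irf8 start (chr8:120736108-120736357, plus strand) are rich in G and C (67.2%) and hold 29 CpG and 2 matches to TTCNNNGAA, a motif bound by STAT factors. The 150 bases before the Csf3r start (chr4:126024509-126024658, plus strand) hold 1 match to GAGGAA, the core of many PU.1 sites, and those before the Csf2ra start (chr19:61228419-61228568, minus strand) hold 2 adjoining matches.
Irf8: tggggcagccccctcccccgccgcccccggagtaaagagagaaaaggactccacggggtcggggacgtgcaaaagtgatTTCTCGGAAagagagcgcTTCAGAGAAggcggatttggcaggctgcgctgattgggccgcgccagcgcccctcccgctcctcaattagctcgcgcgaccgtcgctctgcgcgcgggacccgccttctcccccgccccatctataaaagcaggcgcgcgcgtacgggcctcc
Csf3r: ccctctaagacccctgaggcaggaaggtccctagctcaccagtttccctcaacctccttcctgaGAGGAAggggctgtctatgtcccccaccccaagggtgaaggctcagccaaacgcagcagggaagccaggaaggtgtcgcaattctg
Csf2ra: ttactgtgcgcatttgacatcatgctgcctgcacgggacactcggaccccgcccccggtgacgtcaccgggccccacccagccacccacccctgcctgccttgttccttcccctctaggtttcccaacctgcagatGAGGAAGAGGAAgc

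Over all 32851 windows of 250 bases, 23.3% held GAGGAA and 7.02% TTCNNNGAA, so these letters are common. Among the 7 member windows GAGGAA was found in 3 (Csf3r, Csf2ra and one of 2 for Runx1) and TTCNNNGAA in 1 (Irf8). GGAANNGAA, the core of joint PU.1 and IRF sites, was found in 1 member window, the same one of Runx1, against 6.99% of all windows. The bases after the start of that window were not found near the beginning of any GENCODE transcript of Runx1. For the other Runx1 window they were, and it held none of the motifs searched. The interferon response core GAAANNGAA (7.13% of all windows) and the RUNX motif TGTGGT (14.0%) were found in 0. Both strands were searched. GGAANNGAA can overlap GAAANNGAA and GAGGAA, and a match of letters is not a binding site. Runx1 and Irf8 each have 2 annotated start windows but 1 value per library in the table, so use of one start or the other cannot be read from it.

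The other genes of the axis were taken from lists. Of 8 ligand genes 4 had a row in the table. Besides Csf1, Flt3l, the ligand of the Flt3 receptor, was higher (4.17 to 6.18 CPM, log2 fold change 0.47, limma adjusted p = 0.0168), and Kitl, the ligand of Kit, was not called (93.3 ± 6.77 and 88.1 ± 9.60 CPM, SD of 4 libraries). Of the 10 tested receptor genes, 5 (Csf2ra, Csf2rb, Csf2rb2, Il3ra and Sdc1) passed the filter only through their 1-week values, and all 5 were called higher. Of the other 5, 3 were called higher (the members Csf1r and Csf3r, described above, and Ptprz1) and 0 lower. Of the 14067 genes tested that did not pass only through the 1-week group, 2952 were called higher and 1971 lower. Kit (26.9 and 24.9 CPM) and Flt3 (10.9 and 10.8 CPM), receptor tyrosine kinases of the same class as Csf1r, were not called. Ptprz1, a phosphatase of astrocytes and oligodendrocyte precursors that is also described as a receptor of Il34, was higher, at 47.1 ± 13.5 CPM without delay and 95.7 ± 15.9 CPM at 1 week (SD of 4 libraries; limma, adjusted p = 0.00139).

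Next came the genes that signal from these receptors. Of 28 tested, 5 (Fgr, Syk, Pik3cg, Dok1 and Dok3) passed the filter only through their 1-week values, and all 5 were called higher. Of the other 23, 16 were called higher and 1 lower, and their median on the log2 scale was 0.70. Among the 14067 genes tested that did not pass only through the 1-week group, these numbers were 2952 and 1971. Ptpn6, the phosphatase SHP-1 of blood cells, went from 4.04 to 31.5 CPM, Pik3ap1, an adaptor of PI3 kinase, from 2.47 to 20.6 CPM, and Tyrobp, the adaptor DAP12, from 20.9 CPM ± 1.11 to 134 CPM ± 40.6 (SD, n = 4). Grb2, an adaptor of all tissues and the most abundant gene of this list, stood at 142 and 127 CPM (limma adjusted p = 0.0774), and Jak2, the kinase of the granulocyte-macrophage receptor, fell from 30.5 to 25.8 CPM (log2 fold change -0.24, limma adjusted p = 0.0394). Socs3, a feedback inhibitor of cytokine receptors including that for granulocyte colony-stimulating factor, went from 1.93 to 7.47 CPM, whereas Cish, a STAT5 target, stood at 8.19 and 8.27 CPM (limma adjusted p = 0.95).

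Of 22 tested myeloid transcription factor genes, Sall1 and Batf3 passed the filter only through their 1-week values and were called higher. Of the other 20, which include the members Irf8, Runx1 and Spi1, 15 were called higher and 0 lower (median log2 fold change 1.09). Among the 14067 genes tested that did not pass only through the 1-week group, 2952 were called higher and 1971 lower. On the log2(CPM + 1) scale Irf8, Runx1 and Spi1 had the highest fold changes of the list. Ikzf1, a zinc finger factor of blood cells, went from 3.43 to 15.1 CPM, and Cebpa, a factor of myeloid differentiation, from 6.65 to 20.2 CPM. The partner subunit of Runx1, Cbfb, was not called (28.3 and 30.5 CPM, limma adjusted p = 0.498). Of the 4 tested genes of the RUNX list, only Runx1 was called: Runx2 stood at 14.0 and 11.9 CPM and Runx1t1 at 29.9 and 28.6 CPM. All 7 tested genes of the IRF family, the member Irf8 among them, were called higher, where 23.4% of all genes tested were. Irf7, a regulator of the interferon response, went from 2.45 to 27.8 CPM, which is 3.05 on the log2 scale (SE 0.19; limma, adjusted p = 2.2e-07), and Irf9, a subunit of the interferon-activated factor ISGF3, from 3.21 to 20.4 CPM.

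Microglia and pan-myeloid markers were higher along with most members, and so were most astrocyte, oligodendrocyte and endothelial markers. None of the tested neuronal and neutrophil markers, described above, was called higher. All 10 microglia markers were called higher (median log2 fold change 1.63), and their summed level was 443 to 457 CPM without delay and 1303 to 1839 CPM at 1 week, with none at 0. All 8 pan-myeloid markers, of which Tyrobp is also in the signalling list, were called higher (median 2.41), from a summed 92.7 to 106 CPM to 487 to 783 CPM. Of 12 markers of border and blood macrophages 10 had a row and 5 were tested, of which 3 were higher, and the sum of the 10 was 22.4 to 31.7 CPM without delay and 37.1 to 65.2 CPM at 1 week. The 3 were Ms4a7 (0.640 to 9.71 CPM, tested only through its 1-week values), Mrc1 (1.89 to 4.61 CPM) and Vcan (13.2 to 21.4 CPM). Pf4 (8.88 and 14.05 CPM) and Cbr2 (1.147 and 1.98 CPM, tested only through its 1-week values) were not called. Among monocyte markers too low to be tested, Plac8 stood at 0.350 and 2.37 CPM and Ly6c2 at 0.070 and 0.433 CPM, each with all 1-week libraries above, and Ccr2 at 0.12 and 0.338 CPM with overlap. Of 8 dendritic cell markers 4 were tested and 2 were higher, Itgax (0.075 to 2.40 CPM) and Batf3 (0.730 to 1.89 CPM), both tested only through their 1-week values. Zbtb46 (11.2 and 9.62 CPM) and Flt3 (10.9 and 10.8 CPM), which did not depend on those values, were not called. Xcr1 and Clec9a were at 0 in all no-delay libraries, where a count of 0 allows up to 0.274 to 0.313 CPM. Of 10 lymphocyte markers 1 was tested, also only through its 1-week values, and was higher (Cd79b, 0.428 to 1.95 CPM). Outside the blood lineages, 6 of 6 astrocyte markers were called higher, among them Gfap (31.4 ± 5.02 to 1174 ± 288 CPM, SD of 4 libraries), which had the highest log2 fold change of CPM + 1 of all genes tested (5.16), as were 4 of 5 oligodendrocyte and 4 of 5 endothelial markers. The part of these cells in the members' values was not tested.

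Set against the microglia markers within each library, 5 of 7 members rose by more than the markers did, a direction that for all of them but Irf8 turned with another marker list, as given next. The difference between the groups, as log2(CPM + 1) of the gene minus the mean of the 10 markers, was 1.19 for Irf8 (SE 0.07), 0.84 for Csf3r (SE 0.16), 0.55 for Runx1 (SE 0.15), 0.52 for Spi1 (SE 0.08) and 0.43 for Csf1r (SE 0.05). For each of these the groups did not overlap (n = 4 each, exact permutation p = 0.0286, adjusted p = 0.0408 over 10 ratios). Csf2ra (0.73, exact permutation p = 0.0571) and Csf2rb (-0.20, exact permutation p = 0.0857) did not pass, and with 0.25 CPM added in place of 1 they came to 1.56 and 0.81 (exact permutation p = 0.0286 each), since the added CPM weighs most on genes with few tags.

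Set against the 8 pan-myeloid markers, the direction turned for most members. The difference was -0.46 for Csf1r (SE 0.08, groups not overlapping, exact permutation p = 0.0286, adjusted p = 0.0571), -0.37 for Spi1 (adjusted p = 0.0816), -0.34 for Runx1 (adjusted p = 0.0816), -0.05 for Csf3r (adjusted p = 0.921) and -0.16 for Csf2ra (adjusted p = 0.714). Csf2rb, already below the microglia markers, came to -1.09 (adjusted p = 0.0571). Irf8 alone stayed above the markers, at 0.30 (exact permutation p = 0.0286, adjusted p = 0.0571). None of these passed the adjusted threshold. The mean log2(CPM + 1) of the microglia markers itself rose by 1.55 and that of the pan-myeloid markers by 2.44 (exact permutation p = 0.0286 each, n = 4 libraries a group).

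**Figure D4:**
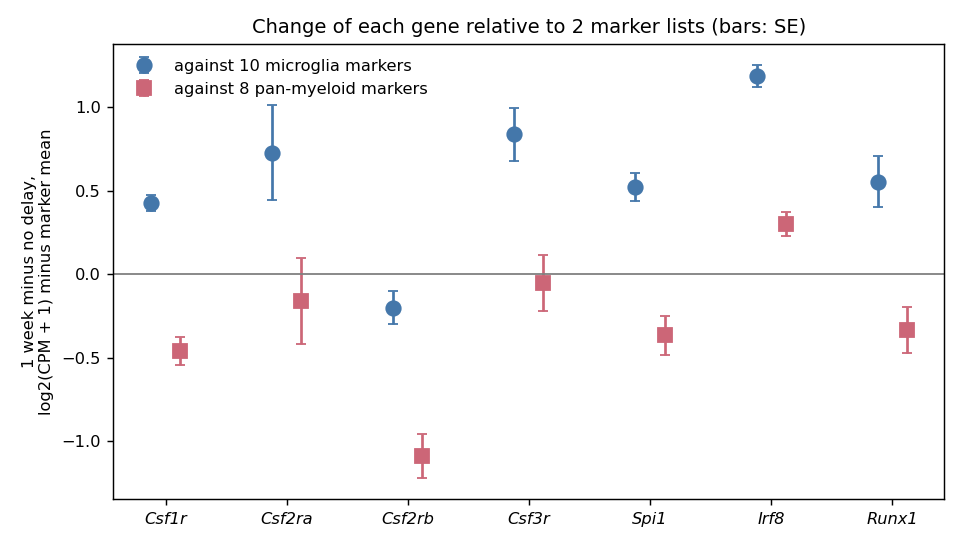
Difference between the groups (1 week minus no delay, vertical axis, log2) of each gene's log2(CPM + 1) after subtraction of the mean of 10 microglia markers (blue circles) or 8 pan-myeloid markers (red squares) in the same library; bars are the SE of the difference (n = 4 libraries a group). Irf8 lies above 0 with both lists (1.19 and 0.30), and Csf1r, Spi1 and Runx1 lie above 0 with the first list and below it with the second.

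The genes whose level followed that of Csf1r most closely over the 8 libraries were Phyhd1, a dioxygenase-domain gene (Pearson r = 0.9993), Irf8 (0.9991), Lag3, an immune checkpoint receptor (0.9986), Ptpn6 (0.9986) and Prdx6, a peroxiredoxin (0.9982). These values describe 8 points in 2 groups, so the group difference makes most of each. After subtraction of the group means, the r with Csf1r was 0.938 for Phyhd1, 0.9504 for Ptpn6, 0.882 for Lag3 and 0.864 for Prdx6. These genes were picked for a high r over the same libraries, which favours high values here too. Of the members, which were taken by name, Irf8 had 0.924, Spi1 0.666, Csf1 0.582 and Runx1 0.463. The picked genes and the members can therefore not be compared on this measure. For Spi1 the closest genes were Ctss, a lysosomal protease (0.9992), Phyhd1 and Nckap1l, a blood cell actin regulator (0.9977 each). For Irf8 they were Csf1r, Hvcn1, a proton channel (0.9990), and Ptpn6 (0.9983). For Il34 they were Dnajc1 (0.953), Rmi1 (0.9504) and Ccdc134 (0.921), with log2 fold changes of 0.10, 0.10 and 0.19. After subtraction of the group means their r with Il34 was 0.941, 0.942 and 0.899. Il34 had only 75 no-delay and 132 1-week tags, and these genes are the highest of many compared over 8 libraries. Whether their r exceeds what such a choice gives by chance was not tested.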

How the data were processed

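CAGE libraries of 8 samples (4 taken without delay and 4 at 1 week) were read as single-end reads of 75 nt, per the labels' protocols. The submitters' processing notes name BWA 0.5.9 and build mm9. The assignment of tags to genes and the handling of strand are not stated there. Values in the deposited table are CPM, scaled by the authors to a common total per library. The columns name the group and no replicate, and were matched to groups only. Whole tags were recovered from the CPM steps: 99.86% to 100% of values lay within 0.1 of a whole tag. No member shared all its tags with another gene.

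Genes with 1 CPM or more in at least 4 libraries (14718) were fitted with limma 3.58.1 (R 4.3.3, variance trend) on log2(CPM + 1), 2-sided, adjusted by Benjamini-Hochberg over all genes tested and called under 0.05. Ratios within a library were compared by exact permutation tests over the 70 arrangements of the libraries. The procedure was also run on simulated data in which far fewer genes changed than here. How it behaves where as many genes change as in these data was not tested. Counting intervals and the floor of 3 tags cover counting error only.

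Members and lists were chosen with earlier results of these data known. Of 169 list genes 148 matched a row, 2 through RefSeq synonyms. Named are all members, for each list up to 3 called genes with the largest absolute log2 fold change and the most abundant gene, and the genes most correlated with Csf1r, Il34, Spi1 and Irf8 at a mean of 5 CPM or more; other list genes given with values were chosen after their values were seen. Alternatives were pseudocounts of 0.25 and 5, no filter and a filter of 5 CPM, TMM, median-of-ratios and quantile scaling, array weights, edgeR 4.0.16 and DESeq2 1.42.0 on the recovered tags, a pan-myeloid reference, and leaving out each library.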

Additional observations from a re-analysis of the deposited data

Results flagged for a closer look

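Of 40 groups of 4 values examined (the members, Csf2rb2 and the 10 ratios, in each group), 1 had a library far from the others: Runx1 stood at 14.0 CPM in the 1-week library B, while A, C and D lay between 9.30 and 9.77 CPM. The gap to the next library was 0.899 of the group's range, above Dixon's limit, which chance passes in about 1 in 20 groups.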

How the results depend on the processing

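Of the members, 8 were called higher with each other pseudocount, scaling and weighting, with no filter, with edgeR and with DESeq2. The 8 include Csf2ra and Csf2rb, whose direction was favoured by the filter wherever it was used. A filter of 5 CPM left 6 members in the test, all called higher, and without any one of the 1-week libraries Csf2rb fell out of the test and 7 were called. Il34 was called in none of its 17 alternatives (adjusted p from 0.146 to 0.83), and its log2 fold change turned to -0.0702 with quantile normalization. The ratio of both ligands to Csf1r had no stable sign: its log2 difference was 0.0426 with 0.25 CPM added and -0.14 to 0.10 without 1 library in turn. With 0.25 CPM added, the differences from the microglia markers came to 1.56 for Csf2ra and 0.81 for Csf2rb, both past the threshold. With the pan-myeloid reference they came to -0.46 (Csf1r), -0.16 (Csf2ra), -0.0526 (Csf3r), -0.37 (Spi1), -0.34 (Runx1) and, no longer past the threshold, 0.30 (Irf8); these markers rose by a mean of 2.44 on the log2 scale, the microglia markers by 1.55. Without 1 library the ratios could give no p under 0.05 (smallest exact p 0.0571). No paired analysis was possible because the columns carry no replicate numbers. Depth limits Csf2ra, Csf2rb, Runx1 and Il34, each with fewer than 100 no-delay tags in all.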
